A study of Papio anubis with 767 samples.

Results

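The cytosolic ribosomal protein genes RPS28, RPS9, RPL13 and RPL5 are described here, 4 of the 29202 rows of an expression table of the olive baboon, each with 1 row. They were chosen from measured values of the same table. RPS28, RPS9 and RPL13 were taken because their fitted 24 h curves peaked in the light phase of the day (ZT0 to ZT12), and RPL5 because its curve peaked in the dark phase. Their times of day are therefore given as a description, with no test, whereas their levels in brain and periphery did not enter the choice and were tested.

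The ribosome of the cytosol is built from a small and a large subunit, each an assembly of ribosomal RNA and ribosomal proteins. The proteins are made in the cytosol, carried into the nucleolus, joined to the RNA there in a fixed order, and needed in equal numbers. Their mRNAs are among the most abundant of most cells, and many begin with a terminal oligopyrimidine stretch, through which their translation is coupled to mTOR signalling. RPS28 (eS28) and RPS9 (uS4) belong to the small subunit, where RPS9 binds the ribosomal RNA early in assembly. RPL13 (eL13) and RPL5 (uL18) belong to the large subunit. RPL5 joins RPL11 and the 5S ribosomal RNA in a particle that enters the large subunit and, when assembly is disturbed, binds the ubiquitin ligase MDM2.

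RNA was sequenced from polyA-selected, stranded libraries of 64 tissues from 12 male baboons, labelled Papio anubis hamadryas, aged 5 to 6 years and weighing 7 to 11 kg. The animals were kept at 12 h light and 12 h dark, with meals at set daytime hours. A single animal was sampled at each time from ZT0 (lights on) to ZT22 in steps of 2 h, so that time of day and animal cannot be told apart. Of the 64 tissues, 22 were of the brain and 35 of the periphery, and 7 of the eye or of glands attached to the brain belonged to neither class. Each tissue had 12 libraries except the iris, which had 11. No treatment or genotype was compared.

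Reads assigned to genes, recovered from the table, had a median of 8.26 M per library. The smallest, the amygdala at ZT8, had 32790 reads. Several libraries stood apart. In 6 tissues (ascending and descending colon, duodenum, stomach fundus, testicles and thyroid) all 12 libraries resembled the animal labelled with the preceding time, and 19 further libraries, 6 of them from the iris, also resembled another animal than the labelled one. In all, 55 libraries correlated with the rest of their tissue at under 0.9. The adrenal cortex lacked its defining markers, with a median of 0.588 FPKM of the steroid enzyme CYP17A1 against 6760 FPKM in the adrenal medulla, and held the smooth muscle gene ACTG2 at 10929 FPKM. In addition, 8 libraries of 4 peripheral tissues held neuron, astrocyte and oligodendrocyte markers, 4 of them at ZT0, and RPS28 was above its tissue's median in 8 of these 8 libraries. The rest were of ZT4 to ZT8, when RPS28 lay above its tissue mean in 49 to 59 of 63 tissues, against 34 at ZT0.

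Expression was deposited as FPKM, fragments per kilobase of gene model, with libraries scaled by the authors. The model lengths implied by the values were 207 bases for RPS28, 585 for RPS9, 633 for RPL13 and 894 for RPL5. Over the 767 libraries RPS28 ranged from 0 to 36971 FPKM with a median of 174 FPKM. RPS9 ranged from 2.27 to 64089 FPKM with a median of 321, RPL13 from 4.55 to 17140 FPKM with a median of 136, and RPL5 from 222 to 3201 FPKM with a median of 642. By these medians RPL5 was the most abundant per length, and it was the least variable. Its lowest library still held 222 FPKM, above the median library of RPS28 and of RPL13. The short RPS28 model collected a median of 300 reads, and 226 libraries had under 100 reads. No reads were counted in 3 libraries, hippocampus and optic nerve head at ZT18 and visual cortex at ZT20, where a count of 0 allows up to 4.53, 4.01 and 2.37 FPKM. RPS9, RPL13 and RPL5 had medians of 1538, 692 and 4785 reads. These limits cover counting error only.

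Across tissues, RPS28 spanned the widest range. By geometric mean it was highest in the lateral hypothalamus, whose arithmetic mean was 2916 ± 1506 FPKM (SD, n = 12), where the 12 libraries ranged from 1180 over a median of 2757 to 6067 FPKM. It was lowest in the retina, at 10.3 ± 13.8 FPKM (SD, n = 12), with 0.779, 6.23 and 50.7 FPKM as lowest, median and highest. The ranges of these tissues did not overlap, and the geometric means lay 423-fold apart. The supraoptic nucleus (1759 ± 828 FPKM), the ventromedial hypothalamus (1587 ± 291), the arcuate nucleus (1435 ± 349) and the amygdala (1258 ± 476; SD, n = 12 each) followed, then the aorta as the first peripheral tissue at 949 ± 221 FPKM (SD, n = 12). At the other end, the optic nerve head (14.9 ± 22 FPKM), the testicles (23.4 ± 28.9) and the perirenal white fat (22.7 ± 23.3; SD, n = 12 each) stood just above the retina. Next above these came brain tissues, the visual cortex (33.1 ± 36.6 FPKM) and the olfactory bulb (26.4 ± 23.1 FPKM, SD, n = 12 each). Within the hypothalamus, the paraventricular nuclei had a median of 25 FPKM and the suprachiasmatic nuclei, the site of the central clock, one of 156 FPKM. In bulk tissue, fewer cells of a type and less RNA per cell cannot be told apart.

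RPS9 followed much the same order. It was highest in the aorta, at 1236 ± 296 FPKM, the lateral hypothalamus, at 1280 ± 614 FPKM, and the supraoptic nucleus, at 1188 ± 494 FPKM (SD, n = 12 each), by geometric mean. The optic nerve head (41.3 ± 45.4 FPKM) and the retina (25.8 ± 28.9 FPKM; SD, n = 12 each) were again last, and the range was 70.3-fold. By the same measure RPL13 was highest in the lateral hypothalamus, at 607 ± 398 FPKM, and lowest in the retina, at 16 ± 9.73 FPKM (SD, n = 12 each), a range of 35.9-fold.

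RPL5 had another order. Lymphoid and intestinal tissues led, with mesenteric lymph nodes at 1698 ± 414 FPKM, axillary lymph nodes at 1544 ± 148 FPKM and duodenum at 1477 ± 390 FPKM (SD, n = 12 each). The retina was lowest at 287 ± 33.2 FPKM, after the pineal gland at 314 ± 101 FPKM and the habenula at 309 ± 58.0 FPKM (SD, n = 12 each), and the range was only 5.77-fold. The ventromedial hypothalamus, near the top of the order of RPS28, held place 60 of 64 in that of RPL5, at 366 ± 51.1 FPKM (SD, n = 12). In the orders of RPS28, RPS9 and RPL5, no 2 of the 63 neighbouring pairs of tissues differed by more than the larger SD. In that of RPL13 this held for 1 pair, the optic nerve head over the retina.

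**Figure D1:**
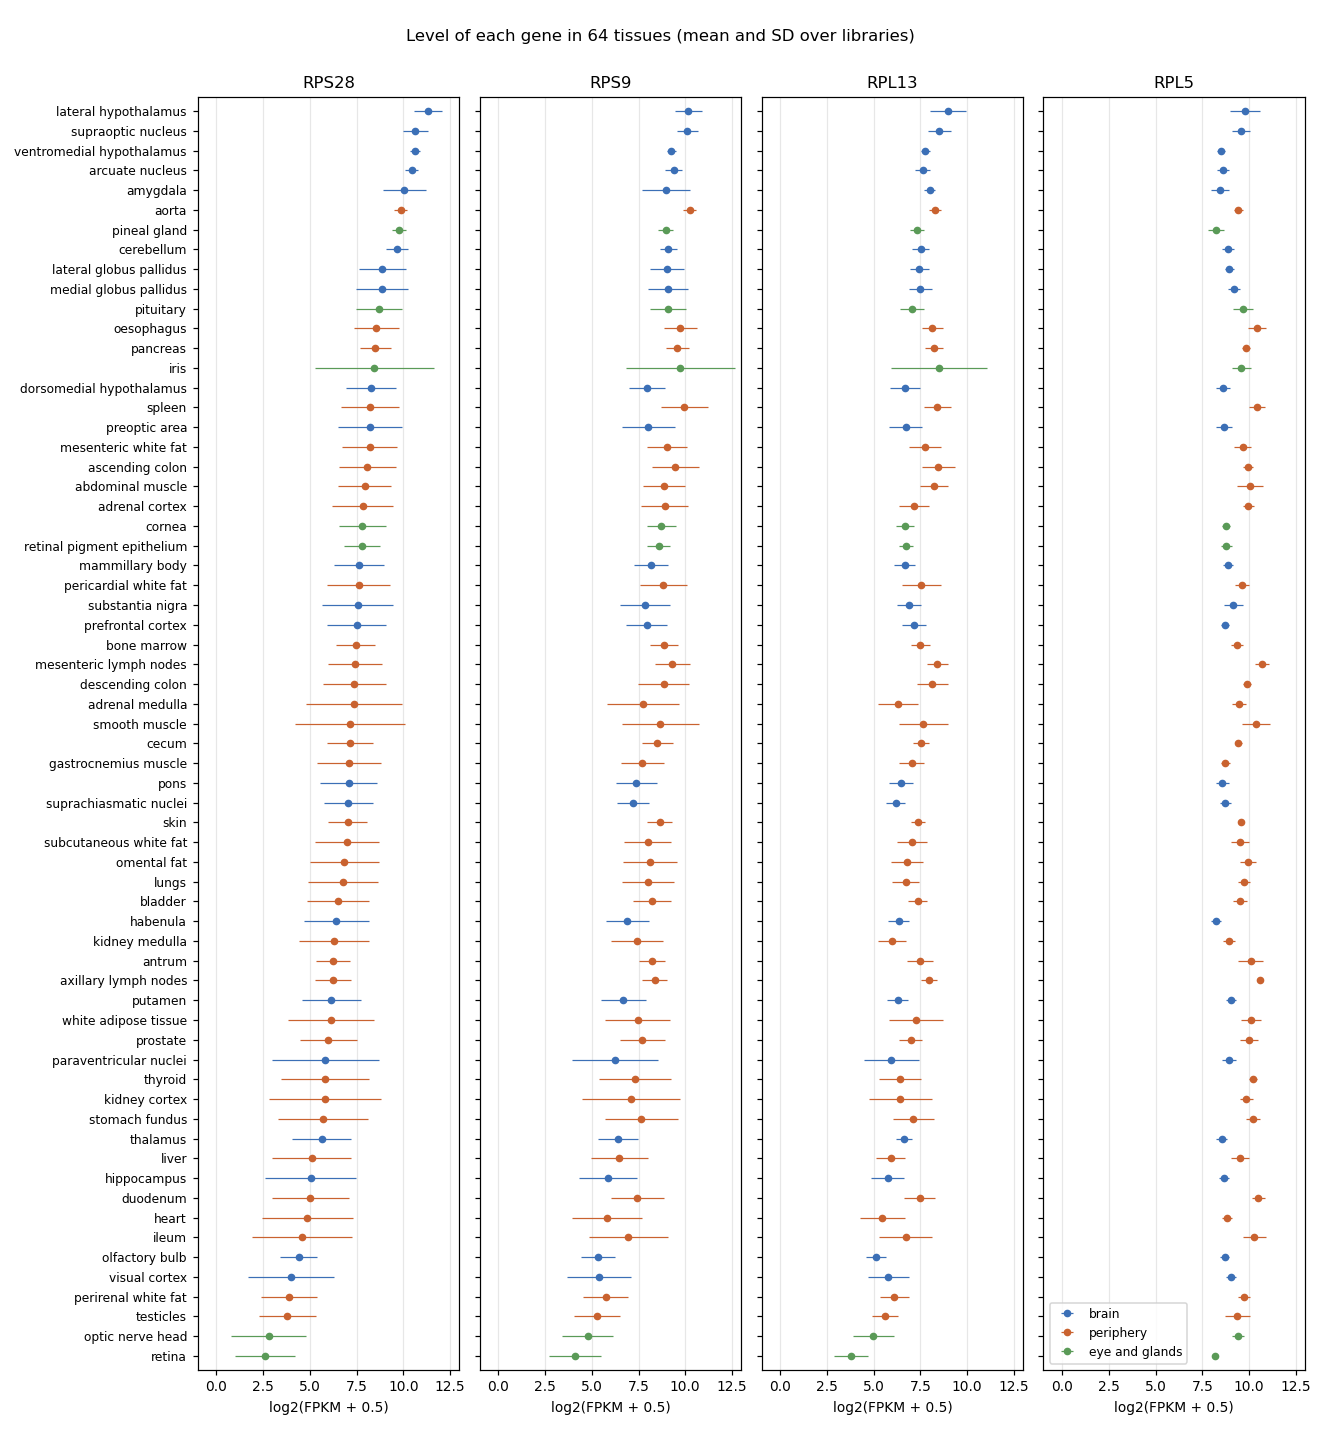
Level of each gene in each tissue as mean log2(FPKM + 0.5), with the SD over the 12 libraries of a tissue (11 in the iris) as bars; tissues run down the page in the order of RPS28 and colours mark brain, periphery, and eye and glands. RPS28 spans 423-fold, RPS9 70.3-fold, RPL13 35.9-fold and RPL5 5.77-fold, and the order of RPL5 differs from that of the other 3.

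The iris carried the extremes. RPS28 stood at 36971 FPKM at ZT8 and 7390 FPKM at ZT6, whereas its other 9 iris libraries ranged from 25 to 608 FPKM. RPS9 reached 64089 FPKM and RPL13 17140 FPKM in the same ZT8 library, in which RPL5 was at 505 FPKM. Both libraries were among the 55 that stood far from their tissue. The iris means, 4228 FPKM for RPS28, 7941 for RPS9 and 2272 for RPL13, rest on these 2 libraries, and the medians were 256, 579 and 192 FPKM.

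Over the 64 tissue means on the log2 scale, Pearson's r was 0.90 between RPS28 and RPS9, 0.92 between RPS9 and RPL13 and 0.77 between RPS28 and RPL13. With RPL5 it was −0.07 for RPS28, 0.30 for RPS9 and 0.46 for RPL13. The tissues share the 12 animals and the authors' scaling, so these values are descriptions. The ratio of RPS28 to RPL5, as a geometric mean per length, ran from 0.0103 in the optic nerve head over a median of 0.223 to 4.31 in the ventromedial hypothalamus. It exceeded 1 in 8 tissues, 6 of them of the brain. RPS9 over RPL5 exceeded 1 in 10 tissues, 7 of them of the brain, with 1.75 in the aorta as its highest value. RPL13 over RPL5 exceeded 1 in 0 of 64 tissues and was highest in the amygdala, at 0.724.

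Brain and periphery were then compared within animals, to ask how the level of each gene differs between these classes. As class means, RPS28 was higher in brain and RPL5 lower, and RPS9 and RPL13 were slightly lower. Not every brain tissue was high in RPS28. The visual cortex and the olfactory bulb, at 3.98 and 4.40 in mean log2(FPKM + 0.5), lay below the peripheral mean of 6.72. As mean log2(FPKM + 0.5) over the tissues of a class, RPS28 had a lowest, median and highest animal of 6.80, 7.70 and 8.94 in brain and of 4.62, 6.81 and 8.44 in periphery. All 12 animals had the higher value in brain, though the ranges overlapped. The difference was 1.06 ± 0.14 log2 (SE, n = 12), 2.08-fold (limma, Benjamini-Hochberg adjusted p = 1.1e-06). Of 10679 genes tested, 39.2% were called higher in brain and 50.5% lower, so a call alone sets none of these genes apart. RPL5 had 8.56, 8.82 and 9.13 in brain and 9.57, 9.83 and 10.08 in periphery as lowest, median and highest animal, ranges that did not overlap. It was 0.506-fold in brain, a difference of −0.98 ± 0.05 log2 (limma, adjusted p = 9.8e-13), and 0 of 12 animals had the higher value in brain.

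RPS9 ranged from 7.01 over a median of 7.84 to 8.82 in brain and from 6.44 over 8.11 to 9.39 in periphery. The difference of −0.28 ± 0.11 log2 passed the threshold (limma, adjusted p = 0.0247), with 2 of 12 animals higher in brain. It no longer passed with the median over tissues (−0.17, adjusted p = 0.127), nor without the animal of ZT2, ZT4, ZT6 or ZT8, when it lay between −0.25 and −0.23 (adjusted p = 0.0514 to 0.0614). RPL13 ranged from 6.52 over 6.88 to 7.51 in brain and from 6.24 over 7.20 to 8.0 in periphery, a difference of −0.32 ± 0.08 log2 (limma, adjusted p = 0.0016), also with 2 of 12 animals higher in brain. For both genes these 2 were the animals of ZT20 and ZT22. The median gene differed by −0.13 log2, and by −0.54 log2 when libraries were scaled to total reads. Under that scaling the differences were 0.57 for RPS28, −0.77 for RPS9, −0.82 for RPL13 and −1.48 log2 for RPL5, each in the same direction.

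Relative to RPL5 all 3 were higher in brain, and in a ratio the scaling factor of a library cancels. The 3 ratios share RPL5, which was itself at −0.98 log2 in brain beside −0.13 for the median gene. A gene at that median would also be higher relative to RPL5. RPS9 and RPL13 were themselves lower in brain, so their ratios restate the low level of RPL5 and are not separate results. The log2 ratio of RPS28 to RPL5 averaged −1.05 in brain and −3.10 in periphery, and the difference was 2.04 ± 0.61 (SD, n = 12) with a lowest animal at 1.22 and a highest at 3.26. For RPS9 over RPL5 the averages were −1.0 in brain and −1.70 in periphery, a difference of 0.71 ± 0.45 (SD, n = 12). For RPL13 over RPL5 they were −1.93 in brain and −2.59 in periphery, a difference of 0.66 ± 0.33 (SD, n = 12). Each ratio was higher in brain in 12 of 12 animals. The exact two-sided permutation test that flips the sign of each animal's difference gave an adjusted p of 0.000488 for each of the 3 ratios, the smallest it can give with n = 12.

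**Figure D2:**
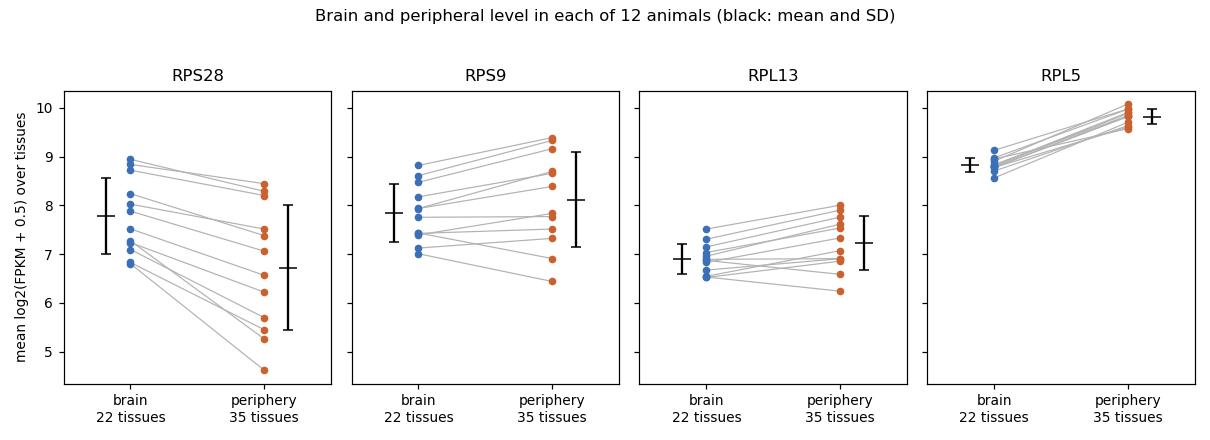
Mean log2(FPKM + 0.5) over the 22 brain tissues (left) and the 35 peripheral tissues (right) in each animal, joined by a line, with the mean and SD of 12 animals in black. RPS28 is higher in brain in 12 of 12 animals and RPL5 in 0 of 12, whereas RPS9 and RPL13 are each higher in brain in 2 of 12.

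The profiles over the day were read as deviations from each tissue's mean, then averaged for each animal across the 63 complete tissues. RPS28 was highest at ZT4, by 1.40 log2 (56 of 63 tissues above their mean), and lowest at ZT22, by −1.64 log2 (10 of 63). RPS9 was highest at ZT6 (1.11 log2, 61 of 63 tissues) and lowest at ZT22 (−1.28 log2, 7 of 63). RPL13 was highest at ZT6 (0.67 log2, 56 of 63 tissues) and lowest at ZT22 (−0.70 log2, 11 of 63). For these 3 genes the animals of ZT2 to ZT10 lay above 0 and those of ZT14 to ZT22 below. RPL5 was highest at ZT20 (0.22 log2, 49 of 63 tissues) and shared its lowest value of −0.17 log2 between ZT4 and ZT8. At ZT0 the spread of RPS28 over tissues was widest, with an SD of 2.22 log2 and 34 of 63 tissues above their mean.

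Fitted with a cosine and a sine term, RPS28 had an amplitude, the height of the fitted peak over the mean, of 1.31 ± 0.16 log2 (SE) with its peak at ZT6.2, and the fitted peak was 6.19-fold the trough. RPS9 had 0.96 ± 0.13 log2 at ZT6.4, 3.8-fold, RPL13 0.53 ± 0.07 log2 at ZT6.3, 2.08-fold, and RPL5 0.14 ± 0.04 log2 at ZT17.4, 1.22-fold. By amplitude these were ranks 10, 35, 932 and 7375 of 12055 genes. All 4 passed the call in this contrast, in which 63.3% of genes did. Since it chose them, nothing is read from that count. The fitted peak of RPL13, the last of the 3 by amplitude, lay 6.3 h after lights on, and that of RPL5 17.4 h after.

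**Figure D3:**
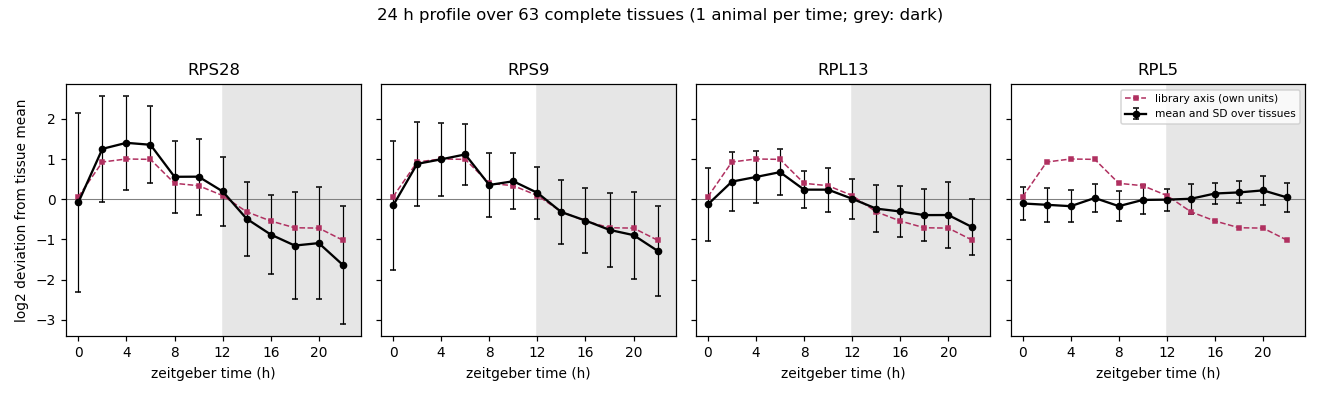
Mean deviation from the tissue mean (log2) at each zeitgeber time, 1 animal per time, with the SD over 63 tissues as bars; the dashed line is the mean score of the library axis in its own units and grey marks the dark phase. RPS28 lies between 1.40 at ZT4 and −1.64 at ZT22 and follows the axis, while RPL5 stays between −0.17 and 0.22.

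In single tissues the same contrast was widespread. The fitted peaks of RPS28, RPS9 and RPL13 fell in the light phase in 58 of 64 tissues for each gene, and in 57 tissues for all 3 together. Those of RPL5 fell there in 11. In 48 tissues all 3 peaked in the light phase and RPL5 in the dark phase. Many of these curves were weak. The call within a tissue was reached in 21, 19 and 15 tissues for RPS28, RPS9 and RPL13, and in 2 for RPL5. Since 24 h curves chose these genes, nothing is read from these counts. Without 1 animal they were 8 to 25, 8 to 24, 6 to 20 and 0 to 2 tissues. Over all genes, 21296 to 64080 pairs of gene and tissue were then called. Genes called varied widely by tissue, for example 0 of 11735 in the ascending colon and 5258 of 11907 in the thyroid. The RPL5 amplitude was below its SE in the pancreas (0.03 ± 0.09 log2) and the thyroid (0.03 ± 0.11 log2), among others. The circular means of the peaks were ZT6.2 for RPS28, ZT6.5 for RPS9, ZT6.3 for RPL13 and ZT17.9 for RPL5. The peaks of RPS28 and RPS9 lay within 1 h of each other in 55 tissues, and RPL5 peaked more than 8 h from each of the 3 in 39. The median fold of peak over trough was 8.66 for RPS28, 5.00 for RPS9, 2.42 for RPL13 and 1.36 for RPL5, and the amplitude was larger in RPS28 than in RPS9 and larger in RPS9 than in RPL13 in 58 tissues.

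The tissues in which 1 or more of the 3 peaked in the dark phase were amygdala, antrum, arcuate nucleus, cerebellum, lateral hypothalamus, pineal gland and ventromedial hypothalamus. All of these but the antrum were among the 8 tissues with the highest geometric mean of RPS28. Among these 6 tissues the amplitude of RPS28 was smallest in the arcuate nucleus, at 0.08 ± 0.16 log2, and largest in the lateral hypothalamus and the amygdala, at 0.60 ± 0.29 and 0.74 ± 0.42 log2 (SE). The amygdala curve includes the ZT8 library of only 32790 reads. RPS28 was lowest there, at 91.5 FPKM against a tissue median of 1316 FPKM, and the curve without this library is not given here. The other 2 of the 8, the supraoptic nucleus and the aorta, had 0.20 ± 0.28 and 0.09 ± 0.14 log2 (SE). Over 64 tissues, Pearson's r between the mean level and the amplitude was −0.56 for RPS28, −0.39 for RPS9, −0.24 for RPL13 and 0.26 for RPL5, over points that share animals and scaling. The steepest curves of RPS28 stood in the iris (97.6-fold), the paraventricular nuclei (86.8-fold), the kidney cortex (82.2-fold) and the ileum (75.6-fold). In the paraventricular nuclei RPS28 had 5.24 FPKM at its lowest, a median of 25 and 2822 FPKM at its highest, at ZT0. In the liver the lowest library, at ZT18, had 1.01 FPKM of RPS28, the median 24.9 FPKM, and the highest, at ZT0, 267 FPKM. The last of these was 1 of the 8 libraries with brain markers, as were the highest ileum library, with 232 FPKM of RPS28 at ZT0, and that of ZT4, with 102 FPKM. The part of those markers in these values was not tested.

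**Figure D4:**
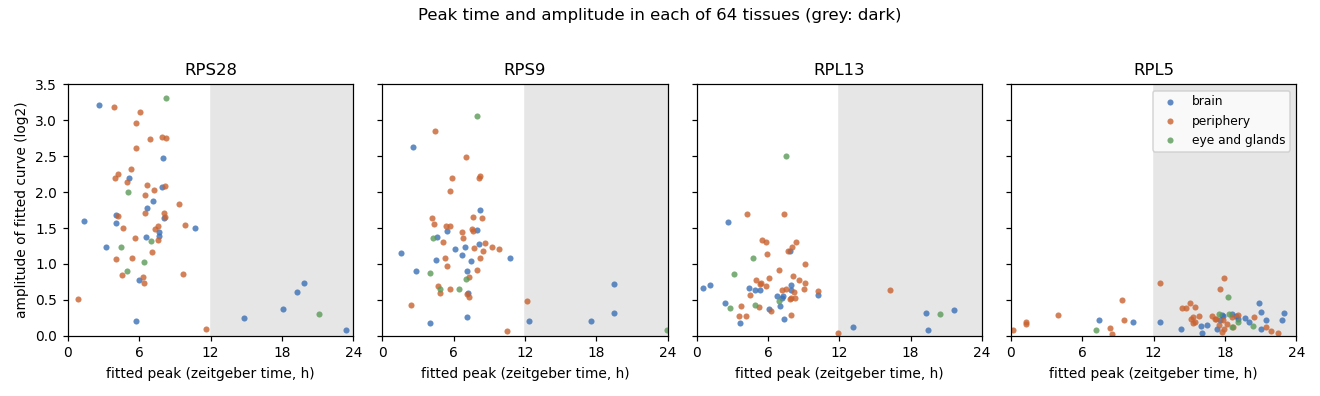
Fitted peak time and amplitude (log2) of each gene in each of 64 tissues, 1 point per tissue, coloured by class; grey marks the dark phase. RPS28, RPS9 and RPL13 peak in the light phase in 58 tissues each and RPL5 in 11, with the smallest amplitude of the 4 in 54 tissues.

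The curves of brain and periphery were compared next. The difference did not enter the choice of genes, but the curves it is taken from did, so the test is not independent of the choice. Fitted to the class means, RPS28 had an amplitude of 0.96 ± 0.12 log2 in brain, with its peak at ZT5.9, and of 1.60 ± 0.20 log2 in periphery, at ZT6.4 (SE). RPS9 had 0.71 ± 0.10 log2 in brain and 1.18 ± 0.16 in periphery, RPL13 0.37 ± 0.07 in brain and 0.67 ± 0.10 in periphery, and RPL5 0.14 ± 0.05 in brain, at ZT19.2, and 0.16 ± 0.05 in periphery, at ZT16.3 (SE). The difference of the curves, brain minus periphery, had an amplitude of 0.66 ± 0.12 log2 for RPS28 (limma, adjusted p = 0.0238), 0.51 ± 0.10 for RPS9 (adjusted p = 0.0296) and 0.37 ± 0.08 for RPL13 (adjusted p = 0.041), and of 0.11 ± 0.07 for RPL5 (adjusted p = 0.478). Of 10679 genes 5.34% were called. All 3 calls were lost without the libraries far from their tissue (adjusted p = 0.184 for RPS28, 0.151 for RPS9 and 0.0946 for RPL13) and without the tissues that resembled another animal (adjusted p = 0.213, 0.223 and 0.248). The amplitudes of the difference were 0.51, 0.40 and 0.32 log2 in the first case and 0.60, 0.44 and 0.32 log2 in the second, and the number of libraries was smaller in both. All 3 calls were also lost without the animal of ZT4, ZT8 or ZT20 alone. Counted by gene, leaving out a single animal lost the call of RPS28 in 3 cases, of RPS9 in 4 and of RPL13 in 8.

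Most of the variation of RPS28, RPS9 and RPL13 followed 1 axis that ran through all libraries. The axis is the first principal component of the deviations from tissue means of 12077 genes, none of them from the ribosomal, translation or assembly lists used here, and it held 30.6% of their variance. Over the libraries of the 63 complete tissues Pearson's r with the axis was 0.96 for RPS28, 0.95 for RPS9, 0.86 for RPL13 and −0.28 for RPL5. A unit of the axis went with 1.41, 1.05 and 0.60 log2 in RPS28, RPS9 and RPL13 and with −0.09 log2 in RPL5. The mean axis score of an animal was between 0.93 and 1.0 at ZT2 to ZT6 and −1.02 at ZT22. With the axis as a covariate the body-wide amplitudes were 0.08 log2 for RPS28, 0.15 for RPS9, 0.05 for RPL13 and 0.15 for RPL5, and 21 of 12055 genes were called. RPS28, RPS9 and RPL13 peaked in the light phase and RPL5 in the dark phase in 4 tissues then, against 48 without the covariate. Over the means of the 12 animals, r with the axis was 0.998 for RPS28, 0.992 for RPS9, 0.986 for RPL13 and −0.73 for RPL5. A covariate so close to the curve takes up the curve itself. The calls lost therefore cannot separate the axis from time of day. Time and animal cannot be told apart in a design with 1 animal per time, and the animal means of the axis share this limit. The axis also varied between the tissues of an animal. With tissue and animal means removed, r with the axis was 0.94 for RPS28, 0.93 for RPS9, 0.80 for RPL13 and −0.16 for RPL5. What the axis stands for was not tested. The reads per library moved little with the genes, with r between −0.24 and −0.05.

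**Figure D5:**
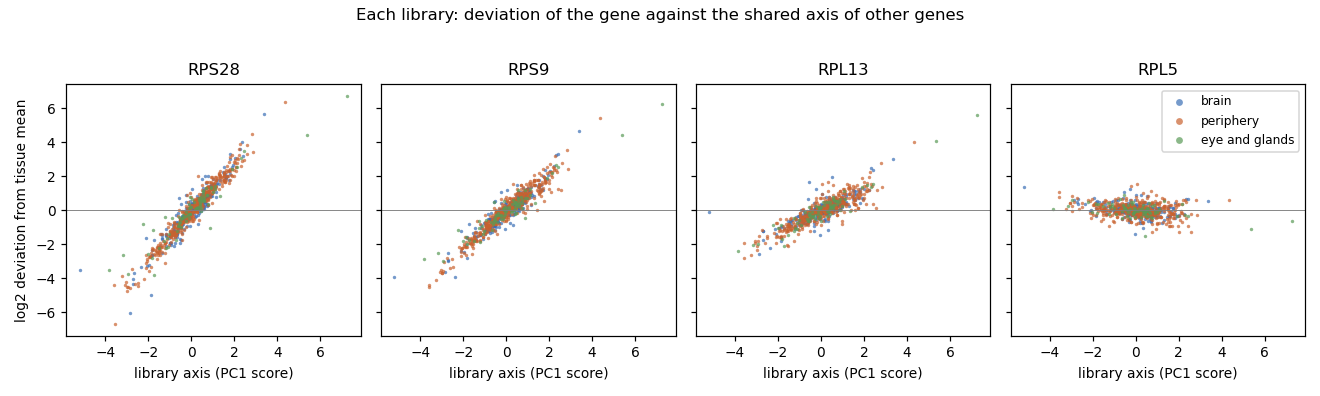
Deviation of each gene from its tissue mean (log2) against the score of the library axis, 1 point per library, coloured by class. RPS28, RPS9 and RPL13 increase along the axis with r of 0.96, 0.95 and 0.86 (without the iris), and RPL5 is nearly flat with r of −0.28.

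Once the mean of each tissue and of each animal had been removed, the genes still varied together within an animal. Over the libraries of the 63 complete tissues r was 0.95 between RPS28 and RPS9, 0.91 between RPS9 and RPL13 and 0.84 between RPS28 and RPL13. With RPL5 it was −0.07 for RPS28, 0.09 for RPS9 and 0.33 for RPL13, so that RPL5 did not run against the other 3 from tissue to tissue of an animal. With quantile scaling within tissue these last values were −0.42, −0.30 and −0.10. RPS28 and RPL5 deviated in opposite directions in 48.9% of libraries, and RPS28 and RPS9 in 8.73%.

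The other cytosolic ribosomal proteins were set beside the 4. Of 75 listed genes, 41 had a row of their own, 15 of them with a mean under 1 FPKM. The filter, a mean of at least 1 FPKM in 0.5 or more of the tissues, left 23 to be tested. In all, 15 of the 23 (65.2%, beside 63.3% of all genes) were called, 15 with a daytime peak and 0 with a night-time one. Light-half peaks made up 82.6% of the 23 genes and 52.7% of all genes tested. Of the small subunit 8 of 11 were called and of the large subunit 7 of 12. The largest amplitudes after RPS28 and RPS9 were those of RPS16 (0.55 ± 0.09 log2, ZT6.3), of FAU, which encodes a ubiquitin-like protein fused to eS30 (0.53 ± 0.08 log2, ZT6.4), of RPL8 (0.52 ± 0.07 log2, ZT6.8), and of the stalk proteins RPLP2 (0.46 ± 0.08 log2, ZT6.0) and RPLP1 (0.39 ± 0.06 log2, ZT6.1). RPL13 stood among these, at 0.53. A fitted peak in the dark phase, as in RPL5, was found in 4, and none of them passed: RPS27A (0.11 ± 0.04 log2, ZT17.1, limma adjusted p = 0.0502), RPL30 (0.08 ± 0.04, ZT16.8), RPL35A (0.03 ± 0.04, ZT17.1) and RPL39 (0.08 ± 0.06, ZT12.5). With quantile scaling within tissue 12 were called with a daytime peak and 2 with a night-time one, with a linear trend as a covariate 2 and 0, and with the axis as a covariate 0 and 0, with 3 of 23 peaks in the light phase. The other settings gave 12 to 16 daytime and 0 to 2 night-time calls. Ribosomal protein genes have near-identical copies in the genome, and how reads that fit several were counted is not given in the sources used here. Whether the rows under 1 FPKM, such as RPS2 at 0.034 FPKM, are low for this reason was not tested. Of the 23, RPS19 had the lowest mean at 2.22 FPKM, followed by RPS20 at 6.38, RPL39 at 7.02 and RPL35 at 7.43 FPKM.

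In level, 3 of 22 other ribosomal proteins were called higher in brain and 15 lower. Of all genes tested, 39.2% were called higher and 50.5% lower. The median of the 22 was −0.46 log2 beside −0.13 over all genes. RPL35 (1.31 log2, at low counts), FAU (0.57 log2) and RPS21 (0.48 log2) were the 3 that were higher, as RPS28 was at 1.06. RPS6, the substrate of S6 kinase, was lowest at −1.35 log2, followed by RPL14 at −1.09, and RPL5 at −0.98 lay between them and the rest. With scaling to total reads 1 was higher and 18 lower, around a median gene of −0.54 log2. Among paralogs, RPL26L1, a copy of RPL26 that the files count apart, was 1.99 log2 higher in brain.

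Of all 12055 genes tested 63.3% were called, 4497 with a daytime peak and 3132 with a night-time one. Of 7 genes listed for RPL5 and the 5S particle, not all of them parts of it, 4 had a row. The call was reached by 3 of these 4, each with a peak in the dark phase: RPF2, which brings the particle to the large subunit (0.23 ± 0.04 log2, ZT18.0), HEATR3, which helps to import RPL5 into the nucleus (0.20 ± 0.03, ZT17.8), and MDM2 (0.18 ± 0.03, ZT18.8). GTF3A, the 5S gene's transcription factor, had 0.03 ± 0.04 log2. Of these 4, 3 were lower in brain, MDM2 at −1.26 log2, and GTF3A was higher by 0.45 log2, beside 50.5% of all genes lower and 39.2% higher. Of translation factors with terminal oligopyrimidine mRNAs 4 of 6 (66.7%) were called. The elongation factors EEF2 (0.67 ± 0.08 log2, ZT6.3), EEF1D (0.39 ± 0.06, ZT6.0) and EEF1G (0.23 ± 0.05, ZT7.2) peaked in the light phase, and EIF3E, an initiation factor subunit, in the dark phase (0.20 ± 0.04, ZT16.8). All 6 were lower in brain. Of 10 genes that regulate the translation of such mRNAs 6 were called with a daytime peak and 2 with a night-time one, 80.0% in all. EIF4EBP1, which blocks the cap-binding factor, had 0.66 ± 0.09 log2 (ZT5.7), TSC2, an inhibitor of mTOR, 0.60 ± 0.09 (ZT6.0) and the mTOR partner MLST8 0.60 ± 0.08 (ZT5.8). RHEB, which activates mTOR, had 0.15 ± 0.03 log2 (ZT17.7) and S6 kinase RPS6KB1 0.12 ± 0.04 (ZT17.3). None of these 3 lists kept a call with the axis as a covariate, and with a linear trend 1 of 4, 1 of 6 and 0 of 10 were called.

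For each of the 4 genes, the genes most alike were taken as those with the highest Pearson's r, of 10598 with a symbol. By profile over 12 animals, RPS28 was followed by SSNA1, RPS19BP1, COPE, CDC37 and WDR83OS, at r of 0.998 or more, and 2832 genes exceeded 0.9. RPS9 was followed by PRDX5, SPHK2, CDK10, FAM89B and OGFR, and RPL13 by RASGRP2, CRTC2, MOB2, FAM50A and CPSF3L. RPL5 was followed by RPS27A (r = 0.97), TAF3, TMEM60, ANP32B and EIF3M, and only 34 genes exceeded 0.9. By mean level over 64 tissues, RPS28 was nearest to NOSIP, MPG, RFXANK, ADRM1 and TSSC4, with no ribosomal protein among these 5. RPS9 (RPL8, STX10, GLTSCR2, RPL13 and ZNF581) and RPL13 (RPL8 at r = 0.97, RPL18, RPS16, RPS9 and GLTSCR2) had ribosomal proteins among their nearest. RPL5 was nearest to RPS4Y1 (r = 0.88), EIF3H, NSA2, RPL14 and EIF3E.

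Genes called in the light phase of the day had a median model length of 1743 bases (4497 genes) and those called in the dark phase one of 1959 bases (3132 genes). The median of all genes tested was 1797 bases. The quartiles overlapped widely, at 990 to 3315 bases in the light phase and 1175 to 3463 in the dark phase. The 4 models are all shorter, and RPL5 is the longest of them. In the RefSeq annotation of Panubis1.0, used for gene order only, RPS9 neighbours TSEN34 (0.21 ± 0.06 log2, ZT5.9), RPL13 neighbours SPG7 (0.39 ± 0.06, ZT5.4) and RPL5 neighbours EVI5 (0.19 ± 0.04, ZT17.4). The neighbours on their other sides, and KANK3 and NDUFA7 on the sides of RPS28, had no fitted curve. With 63.3% of all genes called body-wide, nothing is read from these peaks.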

How the data were processed

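The authors deposited 1 table of FPKM values for 767 libraries. Per the submitters' processing notes it was made with STAR, featureCounts and DESeq2; what each did, in which version and on which build, is not given in the sources used here. In 26545 rows the values could be turned back into whole reads (tolerance 0.01) and gene lengths, since 1 read is worth a fixed step per gene and library; all columns were mapped. Values were taken as log2(FPKM + 0.5). Genes with a mean of at least 1 FPKM in a tissue, or in at least 0.5 of the tissues, were fitted with limma 3.58.1 in R 4.3.3 (variance trend on), by a cosine and a sine term of 24 h or by the brain minus peripheral difference of each animal. P-values were adjusted by Benjamini-Hochberg over all genes tested, with calls under 0.05. Animals are the replicates. The body-wide fit was tried on simulated reads whose noise was independent between genes. They held no axis shared by genes, so they cannot show the rate of false calls under such an axis. A library was taken to resemble another animal when its animal-specific genes matched that animal's better by more than 0.1 in r, and to hold foreign markers at 10 FPKM and 20 times its tissue's median. The 4 genes and all lists were chosen with earlier results of these data known. Named were the 4, list genes by largest amplitude or difference, and the 5 most alike. Alternatives changed pseudocount, filter, scaling, averaging, libraries and covariates. A count test was not run on the recovered reads. No sequence is shown. Beside the 7 genes listed for the 5S particle, 1 further gene is not reported here.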

Additional observations from a re-analysis of the deposited data

Results flagged for a closer look

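The difference of the 24 h curves between brain and periphery was called for RPS28, RPS9 and RPL13 in the main setting. The genes were chosen from 24 h curves of the same data, so the test is not independent of the choice. The call was kept under 15, 12 and 7 of 26 alternatives. The brain minus peripheral curve over 24 h had an amplitude of 0.66 log2 for RPS28, 0.51 log2 for RPS9 and 0.37 log2 for RPL13, with the smaller amplitude in brain for each (0.96, 0.71 and 0.37 log2 in brain, 1.60, 1.18 and 0.67 log2 in periphery). Without the libraries far from their tissue the amplitudes were 0.51, 0.40 and 0.32 log2, and with the library axis as a covariate 0.20, 0.21 and 0.19 log2. In both cases no call remained for these 3 genes. The parts that libraries that resemble another animal and the library axis have in this difference were not tested.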

How the results depend on the processing

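The brain minus peripheral difference kept its direction for all 4 genes under all 25 alternatives, and the 3 ratios to RPL5 kept direction and call under 24. Leaving out 1 animal gave 0.96 to 1.12 log2 for RPS28, −0.35 to −0.23 for RPS9, −0.38 to −0.29 for RPL13 and −1.02 to −0.97 for RPL5, and ratios of 1.93 to 2.12, 0.62 to 0.76 and 0.59 to 0.70. For RPS9 the call was lost with no filter on low values (−0.28, adjusted p = 0.0599), without moderation (−0.28, 0.0639) and with the median over tissues (−0.17). Without the pairing by animal, that is with no replicate block, RPS9 (−0.28, adjusted p = 0.402) and RPL13 (−0.32, 0.0837) were not called, and RPS28 and RPL5 were. Of all genes 9586 were called in level (9486 to 9597 without 1 animal), 5292 with a filter at 5 FPKM and 19675 with no filter, where fewer or more genes were tested.

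The difference of the curves called 570 genes, and 2618 at an unadjusted p under 0.05. It called 25 to 759 without 1 animal, 159 with no filter, 113 scaled to total reads, 73 with the median over tissues, 42 without approx libraries, 42 without libraries far from their tissue, 208 without the smallest library, 21 without tissues matching another animal, 0 without moderation (2277 at an unadjusted p under 0.05), 8 with the axis and 6 with a linear trend. In that order of settings, from no filter on, values whose call was lost were 0.66, 0.61, 0.65, 0.51, 0.60, 0.66, 0.20 and 0.36 for RPS28 (still called when scaled to total reads and without the smallest library), 0.51, 0.42, 0.39, 0.50, 0.40, 0.47, 0.44, 0.51, 0.21 and 0.37 for RPS9, and 0.37, 0.30, 0.26, 0.36, 0.32, 0.37, 0.32, 0.37, 0.19 and 0.30 for RPL13, which was also lost with a pseudocount of 0.1 (0.37). Over all alternatives the adjusted p was 0.0167 to 0.935 for RPS28, 0.0205 to 0.843 for RPS9 and 0.0276 to 0.8 for RPL13. Without 1 animal the values were 0.56 to 0.73, 0.43 to 0.58 and 0.31 to 0.42, with 0.06 to 0.15 for RPL5.

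Body-wide, 7629 genes were called, 6612 to 7591 without 1 animal, 4847 with a filter at 5 FPKM, 21 with the axis and 1309 with a linear trend. Amplitudes without 1 animal were 1.22 to 1.44 for RPS28, 0.88 to 1.07 for RPS9, 0.48 to 0.58 for RPL13 and 0.13 to 0.18 for RPL5; the axis gave 0.082, 0.15 and 0.051 for RPS28, RPS9 and RPL13, and quantile scaling 0.24 for RPL5. Opposed phases were found in 48 tissues, 45 to 49 without 1 animal, 4 with the axis and 27 with a linear trend. The residual r of RPL13 and RPL5 reversed to −0.10 with quantile scaling. The cause of these changes was not tested, except that fewer genes or libraries enter where a filter or an omission says so. Depth limits RPS28 most, with under 100 reads in 226 libraries.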

Other observations

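Of 20 ribosome assembly factors with a row, 19 were tested, 8 were called with a daytime peak and 7 with a night-time one. This was 78.9%, beside 63.3% of all genes, and 52.6% of the fitted peaks fell in the light phase, beside 52.7% of all genes. They had a median amplitude of 0.22 log2 beside 0.18 over all genes tested. Among those called by day, BOP1 (0.78 ± 0.10 log2, ZT5.6) and PES1 (0.42 ± 0.05, ZT5.9) form a complex that processes large-subunit RNA. WDR12, the complex's other protein, peaked in the dark phase (0.26 ± 0.04, ZT19.0), as did the nucleolar proteins GNL3 (0.23 ± 0.03, ZT18.9) and NCL (0.21 ± 0.03, ZT18.8). BOP1 and PES1 were higher in brain, by 1.36 and 0.59 log2, and WDR12 lower, at −0.42 log2. With the library axis as a covariate 0 of the 19 were called, and with a linear trend 1 by day and 3 by night.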
